A study of Homo sapiens with 12 samples.

Results

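HSPA5 and 8 other genes of the endoplasmic reticulum (ER) stress response (PDIA4, DNAJB9, DNAJB11, HERPUD1, SDF2L1, CRELD2, CANX and PDIA3) were read at their own count rows, together with RABEPK, the gene whose end faces that of HSPA5 from the other strand. The 10 genes were taken by name from the count table of each library, and all 10 were among the 14911 genes tested. The data are RNA-seq counts from HSC-3, an established line of human oral squamous carcinoma cells, in 3 groups of 4 libraries. The first group received 25 µM cyclopiazonic acid (CPA) for 3 hours together with the ORAI inhibitor synta-66, the second received CPA on the same schedule without synta-66, and the third was untreated. CPA blocks the SERCA pump, which loads the ER with calcium. The sources used here give no dose for synta-66, and cells given synta-66 without CPA were not analysed here. Since the labels name no separate cultures behind the 4 libraries of a group, the p-values cover only the spread among these libraries, and that spread may be technical.

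When unfolded proteins build up in the ER, for instance after its calcium is lost, cells run a programme called the unfolded protein response. HSPA5, also known as BiP, is the Hsp70 chaperone of the ER and binds both unfolded proteins and the sensors of that programme. Its partners are J-domain co-chaperones, protein disulfide isomerases that form and rearrange disulfide bonds, lectin chaperones that hold glycoproteins, and the machinery that sends misfolded proteins to degradation. Oral squamous carcinoma cells are of epithelial origin, and secreted and membrane proteins of such cells fold in the ER.

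The promoter of HSPA5 is the classic carrier of the ER stress response element, spelled here as CCAAT, 9 bases of any kind and CCACG, and it is shown because CRELD2 and CANX, whose readings follow below, hold the same element. That of HERPUD1 is shown because this gene had the largest fold between CPA-treated and untreated cells among the 10. Both come from RefSeq on GRCh38.p14 and stop before the annotated gene. The HSPA5 stretch is chr9:125241383-125241593 on the minus strand, bases -250 to -40 from the start, with the 2 ends of the element in capitals, and the HERPUD1 stretch is chr16:56931892-56932141 on the plus strand, bases -250 to -1, with a match to TGATGNAA on the reverse strand and 2 matches to CCACG in capitals.
HSPA5: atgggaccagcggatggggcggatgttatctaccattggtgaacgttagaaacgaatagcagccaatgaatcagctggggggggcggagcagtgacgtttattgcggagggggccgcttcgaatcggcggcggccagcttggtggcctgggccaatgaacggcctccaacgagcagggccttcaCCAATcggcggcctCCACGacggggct
HERPUD1: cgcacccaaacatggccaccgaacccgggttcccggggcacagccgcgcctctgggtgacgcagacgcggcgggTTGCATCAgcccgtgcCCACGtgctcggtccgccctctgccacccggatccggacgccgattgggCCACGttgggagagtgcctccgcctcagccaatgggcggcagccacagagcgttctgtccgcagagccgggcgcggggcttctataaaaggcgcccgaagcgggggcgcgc

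RefSeq promoter windows of 300 bases (250 before and 50 after the start) were matched by symbol for 9 of the 10 genes, all but PDIA3, in 13 windows. Both strands were searched for the ER stress response element, for CCACG, which is its second end and so overlaps it, for TGACGTGG and for TGATGNAA. The ER stress response element lay in 27 of 35116 windows, or 0.0769%, CCACG in 38.1%, TGACGTGG in 0.729% and TGATGNAA in 3.62%. HSPA5 held the element at chr9:125241391-125241409, bases -66 to -48 from its start. CANX held it in 3 of its 4 windows, all at the site chr5:179698778-179698796, and CRELD2 held it on the reverse strand at chr22:49918554-49918572. These 2 sites are shown beside that of HSPA5, with the ends in capitals; that of CRELD2 is printed on the strand of the gene.
HSPA5 site: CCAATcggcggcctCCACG
CANX site: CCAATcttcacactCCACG
CRELD2 site: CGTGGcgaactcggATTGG
The windows of RABEPK and DNAJB11 held none of these motifs in those letters, and no window of the 9 genes held TGACGTGG. The match in HERPUD1 to TGATGNAA was the only one among the 9 genes. Other spacings or relative orientations of CCAAT and CCACG were not searched. A gene without the element as spelled here, such as HERPUD1, may thus hold another form of it. A match is a description of these letters and says nothing of binding.

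Depth at these rows was low, and this bears on each value below. The libraries held 2819486 to 5458858 reads assigned to genes, 3.58% to 9.4% of the uniquely aligned reads, and 90.5% to 96.3% of those reads lay in no feature on the strand counted. Even CANX, with the most reads of the 10, had 93 to 375 reads per library. A row read here may thus hold only a small part of a transcript's reads, and a low own row does not show low expression. Rows on the other strand held far more reads at some ER genes, as at PPIB (mean 7.83 own, 16009 at SNX22) and P4HB (13.4 own, 8986.5 at ENSG00000262831). At others they held fewer, as at DERL2 (534 own, 9.17 at MIS12). MIS12 overlaps only the start of DERL2, over 301 of its 6383 exonic bases, so this pair cannot show where most DERL2 reads lay. Whether the strand counted is that of the transcripts was not tested. The ribosomal RNAs of mitochondria made up 27.6 ± 27.6% of gene reads with CPA and synta-66, 3.22 ± 4.22% with CPA and 16.1 ± 16.5% in untreated cells (SD, n = 4 each). They made up 53.5% and 49.4% in replicates 1 and 4 of CPA with synta-66 and 39.6% in untreated replicate 3, the 3 libraries with the most non-unique alignments (268 M to 486 M). Results are therefore given with and without these 3 where their calls differ. All 10 epithelial markers were detected, with summed levels of 8000 to 8723 CPM (counts scaled to a common depth by TMM library sizes) with CPA and synta-66, 7122 to 8185 CPM with CPA and 7055 to 7629 CPM in untreated cells, nearly all of it at KRT8, and none of the 10 was called by edgeR or DESeq2 in a comparison (4, 2 and 0 of them, and 19%, 14.4% and 15.1% of all genes tested, had an unadjusted p under 0.05 in CPA with synta-66 against CPA, CPA with synta-66 against untreated and CPA against untreated). KRT18 overlaps KRT8 from the other strand over 525 exonic bases, with a mean of 153 reads against 30486 for KRT8. CDH1, EPCAM and TP63 had only 67, 77 and 30 reads over all libraries, and each had none in some library. Of 6 fibroblast markers, COL3A1, DCN, LUM and PDGFRB had no read in any library. Their summed level, over all 6, was at most 1.04 CPM in any library. The 8 immune and endothelial markers summed to 1.31 to 5.41 CPM with CPA and synta-66, 3.24 to 6.19 CPM with CPA and 5.31 to 7.80 CPM in untreated cells, with CD3E at 0 throughout. In bulk RNA, fewer cells of a type and less RNA per cell cannot be told apart.

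**Figure D1:**
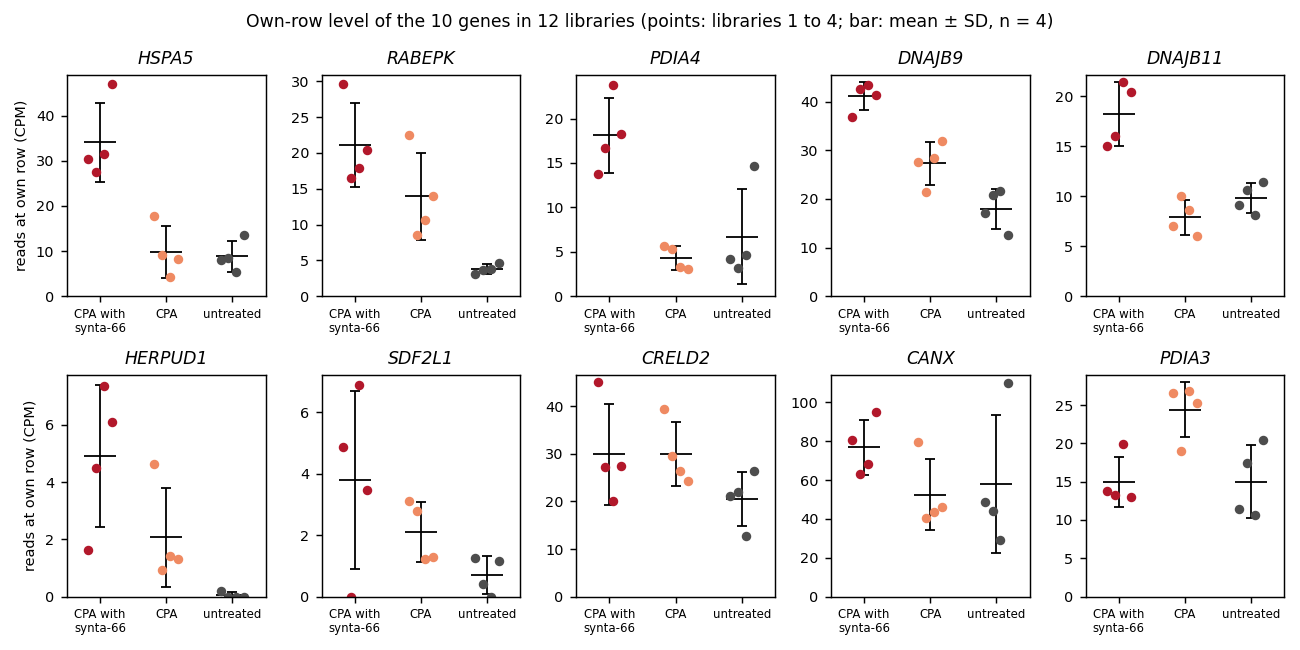
Level at the own row of each of the 10 genes in CPM (vertical axes, linear from 0) for CPA with synta-66, CPA and untreated cells. Each point is a library and the bar is the mean ± SD of 4; the HSPA5, PDIA4 and DNAJB11 points with CPA and synta-66 lie above every CPA point, and the RABEPK points of CPA lie above every untreated point.

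HSPA5, the main chaperone of the ER, had more reads in cells given CPA with synta-66 than in either other group, and CPA without synta-66 did not separate from untreated cells. HSPA5 (ENSG00000044574, chr9:125234853-125241382, minus strand, GRCh38) had 75, 122, 128 and 108 reads in CPA with synta-66, replicates 1 to 4. It had 69, 39, 21 and 38 reads with CPA and 39, 42, 17 and 46 reads in untreated cells. All 4 libraries with synta-66 held more than any of the other 8. In CPM this was 30.4, 27.5, 31.4 and 47.0 with CPA and synta-66, 17.8, 9.07, 4.30 and 8.20 with CPA, and 8.12, 8.40, 5.31 and 13.5 in untreated cells. The groups averaged 34.1 ± 8.77, 9.84 ± 5.7 and 8.83 ± 3.4 CPM in that order (SD, n = 4 each).

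In the edgeR quasi-likelihood fit of all 12 libraries, with Benjamini-Hochberg adjustment over all genes tested, HSPA5 rose by 1.80 ± 0.28 on the log2 scale (SE) in CPA with synta-66 against CPA, adjusted p = 1.45e-05. Against untreated cells, CPA with synta-66 gave 1.94 ± 0.29, adjusted p = 6.6e-06. CPA against untreated gave 0.14 ± 0.30, adjusted p = 0.9, with a 95% interval of -0.45 to 0.73, so changes within that interval could not be told from none at this depth. That sign was not stable: the value was -0.29 without CPA replicate 1, the highest of its group, -0.023 without untreated replicate 3 and -0.018 with the 3 libraries of the most non-unique alignments left out. With those 3 libraries left out, HSPA5 still rose in CPA with synta-66, by 1.56 against CPA and by 1.55 against untreated cells, with adjusted p = 0.000831 and 0.0041 in edgeR. A change was called when the adjusted p was under 0.05 and the change at least 1.5-fold, and both calls for HSPA5 were kept under every alternative run. The 3 comparisons share groups, CPA or untreated cells, so their values are given side by side and are not independent of each other.

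RABEPK, a kelch-repeat protein known as an effector of RAB9 in transport from endosomes to the Golgi and not as an ER stress gene, had more reads with CPA, with or without synta-66, than in untreated cells. The gene (ENSG00000136933, chr9:125200542-125234161, plus strand) ends 691 bases from the annotated end of HSPA5, and the 2 ends face each other. Within 10000 bases, the only other such facing end among the 10 genes was that of a noncoding gene 5656 bases from CRELD2, which had a mean of 0.5 reads. RABEPK had 73, 73, 73 and 47 reads with CPA and synta-66, 87, 37, 52 and 65 reads with CPA, and 15, 18, 12 and 16 reads in untreated cells. Every library given CPA held more RABEPK reads than every untreated one, while the 2 CPA groups overlapped. In CPM this was 29.6, 16.4, 17.9 and 20.4 with CPA and synta-66, 22.5, 8.60, 10.6 and 14.03 with CPA, and 3.12, 3.60, 3.75 and 4.69 in untreated cells.

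RABEPK rose by 1.88 ± 0.31 on the log2 scale in CPA against untreated cells (edgeR adjusted p = 4.89e-05) and by 2.47 ± 0.31 in CPA with synta-66 against untreated cells (edgeR adjusted p = 1.91e-07). CPA with synta-66 against CPA gave 0.59 ± 0.27, edgeR adjusted p = 0.22, which is not a call. That last value was 0.91 without CPA replicate 1 (edgeR adjusted p = 0.0485, past the threshold), 0.39 without replicate 1 of CPA with synta-66 (adjusted p = 0.546) and 0.28 with the 3 libraries of the most non-unique alignments left out (adjusted p = 0.768). Of the other genes next to the pair, HSPA5-DT, a noncoding transcript that starts on the far side of HSPA5, had 2 to 8 reads per library with CPA and synta-66, 0 to 9 with CPA and 0 to 4 in untreated cells. GAPVD1 had 3 to 15, 2 to 11 and 2 to 15 reads in the same order and PPP6C at most 3 in any library. Neither HSPA5-DT nor GAPVD1 was called in a comparison, with edgeR adjusted p between 0.37 and 0.931, and PPP6C was not tested. Of 7 tested genes on a list of RAB9 and endosome-to-Golgi transport, RABEPK was the only one called in any of the 3 comparisons. Of all genes tested, edgeR called 4.76% in CPA with synta-66 against CPA. It called 2.9% in CPA with synta-66 against untreated cells and 2.85% in CPA against untreated cells. No call among so few other genes is near those shares, and some had few reads, as RAB9A with 0 to 10 per library. Whether RABEPK reads came from transcripts of RABEPK or from transcripts that run past the end of HSPA5 was not tested, and counts per gene cannot tell them apart. The 2 genes lie on opposite strands and the libraries were counted as stranded. Transcripts of HSPA5 would thus reach the RABEPK row only where the strand counted is opposite to that of the transcript. The strand of these reads was not tested.

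**Figure D2:**
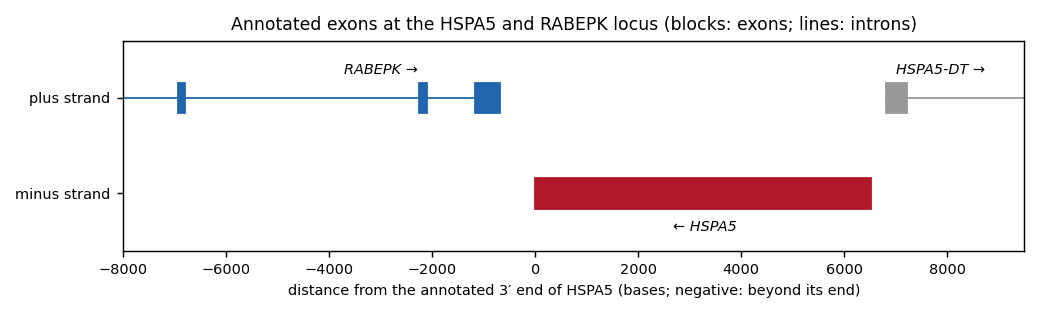
Annotated exons (blocks; union over transcripts) and introns (lines) of RABEPK and HSPA5-DT on the plus strand and HSPA5 on the minus strand, by distance in bases from the annotated 3′ end of HSPA5, in GENCODE 44. The end of RABEPK lies 691 bases beyond the end of HSPA5.

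The balance between these 2 neighbouring rows was also compared. Summed over 4 libraries, HSPA5 and RABEPK held 433 and 266 reads with CPA and synta-66, or 1.63 HSPA5 reads per RABEPK read. With CPA they held 167 and 241 reads, or 0.693, and in untreated cells 144 and 61 reads, or 2.36. RABEPK thus had more reads than HSPA5 in the CPA group, in 3 of its 4 libraries, and fewer in every library of the other groups. A ratio within a library does not depend on its size or scaling, and the comparison therefore used log2 of (HSPA5 reads + 1)/(RABEPK reads + 1).

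This log2 ratio was 0.04, 0.73, 0.80 and 1.18 with CPA and synta-66, -0.33, 0.07, -1.27 and -0.76 with CPA, and 1.32, 1.18, 0.47 and 1.47 in untreated cells. Every CPA library lay below every untreated library, and the highest CPA library lay just above the lowest one with synta-66. CPA and untreated cells differed by -1.68 (means -0.57 ± 0.58 and 1.11 ± 0.44, SD, n = 4 each; exact two-sided permutation p = 0.0286, the smallest that 70 splits allow, 0.0857 after adjustment over 3 comparisons). CPA with synta-66 and CPA differed by 1.26 (means 0.69 ± 0.48 and -0.57 ± 0.58; exact permutation p = 0.0571, adjusted 0.0857). CPA with synta-66 and untreated cells differed by -0.42 (means 0.69 ± 0.48 and 1.11 ± 0.44; exact permutation p = 0.286). None of the 3 passed after adjustment.

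**Figure D3:**
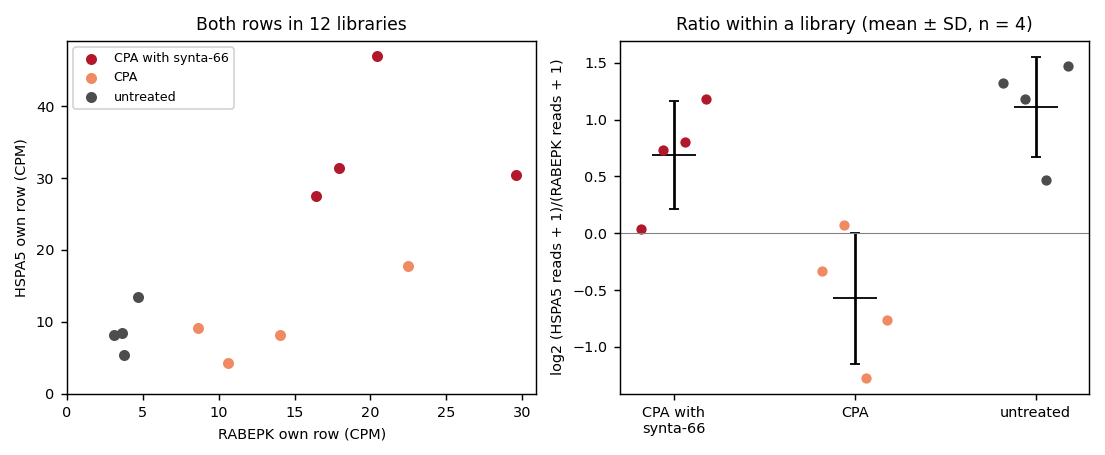
Left, HSPA5 against RABEPK at their own rows (CPM, both axes linear from 0), a point per library; right, log2 of (HSPA5 reads + 1)/(RABEPK reads + 1) per library with the mean ± SD of 4. Libraries with CPA and synta-66 are high in both genes, untreated ones are low in both, and the CPA group has the lowest ratios, at -0.57 ± 0.58.

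DNAJB11 and DNAJB9 are J-domain co-chaperones of HSPA5. DNAJB11 (ENSG00000090520, chr3:186567403-186585800) had 15.0, 15.99, 21.4 and 20.4 CPM with CPA and synta-66, 6.97, 10.0, 8.60 and 6.04 CPM with CPA, and 9.16, 10.6, 8.13 and 11.4 CPM in untreated cells. The libraries with synta-66 lay above all others, and CPA overlapped untreated cells. DNAJB11 rose by 1.20 ± 0.27 on the log2 scale in CPA with synta-66 against CPA (edgeR adjusted p = 0.00195), with or without the 3 libraries that had the most non-unique alignments. Against untreated cells, CPA with synta-66 gave 0.89 ± 0.26 (edgeR adjusted p = 0.0438). That call was lost without those 3 libraries (0.82, adjusted p = 0.268), and also without each of untreated replicates 1, 2 and 3 and of replicates 2, 3 and 4 with synta-66 (0.80 to 0.95, adjusted p = 0.0544 to 0.161). It was lost as well without the count filter (adjusted p = 0.0713) and under a replicate block (adjusted p = 0.0598). CPA against untreated cells gave -0.31 ± 0.27, edgeR adjusted p = 0.667.

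The end of DNAJB11 is overlapped on the other strand, over 496 exonic bases, by the noncoding gene HRG-AS1, which had a mean of 310 reads per library against 45.3 for DNAJB11. HRG-AS1 averaged 140 ± 19.7 CPM with CPA and synta-66, 77.3 ± 6.29 CPM with CPA and 30.1 ± 5.97 CPM in untreated cells (SD, n = 4 each), with no overlap between the groups. It was called higher in all 3 comparisons, by 0.86 ± 0.12 in CPA with synta-66 against CPA, 2.21 ± 0.13 in CPA with synta-66 against untreated cells and 1.36 ± 0.13 in CPA against untreated cells (log2, SE; edgeR adjusted p = 2.57e-06, 9.48e-17 and 2.91e-10). In CPA against untreated cells the row opposite DNAJB11 therefore rose, while DNAJB11 at its own row gave -0.31. Reads of DNAJB11 and of HRG-AS1 cannot be told apart by these counts. The other gene opposite DNAJB11, TBCCD1, had a mean of 2.67 reads and was not called.

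DNAJB9 (ENSG00000128590, chr7:108569867-108574850) rose in each of the 3 comparisons. It had 36.9, 42.6, 43.5 and 41.3 CPM with CPA and synta-66, 27.6, 21.4, 28.4 and 31.9 CPM with CPA, and 17.1, 20.8, 21.6 and 12.6 CPM in untreated cells. The libraries with synta-66 lay above all others, and 1 CPA library lay within the untreated range. DNAJB9 rose by 1.19 ± 0.18 on the log2 scale in CPA with synta-66 against untreated cells (edgeR adjusted p = 1.03e-05) under every alternative run. The other 2 calls lay at the edge of both thresholds: 0.59 ± 0.18 in CPA with synta-66 against CPA (edgeR adjusted p = 0.0294) and 0.60 ± 0.18 in CPA against untreated cells (edgeR adjusted p = 0.0472), folds of 1.504 and 1.516. CPA against untreated cells lost its call without any single library other than untreated replicates 2 and 3 and CPA replicate 2, with adjusted p of up to 0.177 (without untreated replicate 4), and in a fit of only these groups (0.0826). CPA with synta-66 against CPA lost it without CPA replicate 1, 2 or 3 or replicate 2, 3 or 4 with synta-66, with adjusted p of up to 0.118 (without CPA replicate 2), and with the 3 libraries of the most non-unique alignments left out (0.62, adjusted p = 0.0922). It also fell just short of 1.5-fold, at 0.58, without mitochondrial genes, without the count filter and under a replicate block.

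PDIA4 and PDIA3 are protein disulfide isomerases of the ER. PDIA4 rose in CPA with synta-66 against both other groups, and PDIA3 passed the test in no comparison of the edgeR fit. PDIA4 (ENSG00000155660, chr7:149003062-149028662, minus strand) had 34, 74, 97 and 42 reads with CPA and synta-66, 22, 23, 16 and 14 with CPA, and 20, 16, 15 and 50 in untreated cells. In CPM, PDIA4 had 13.8, 16.7, 23.8 and 18.3 with CPA and synta-66, 5.68, 5.35, 3.27 and 3.02 with CPA, and 4.16, 3.20, 4.69 and 14.6 in untreated cells. The CPA libraries all lay below those with synta-66, and untreated replicate 4 alone reached into their range. PDIA4 rose by 2.08 ± 0.37 on the log2 scale in CPA with synta-66 against CPA (edgeR adjusted p = 9.12e-05) under every alternative run. CPA with synta-66 against untreated cells gave 1.48 ± 0.36 (edgeR adjusted p = 0.00711). Without untreated replicate 4 that change was 2.19, and its call was lost without untreated replicate 1 or 2 or replicate 3 with synta-66 (1.304, 1.23 and 1.32, edgeR adjusted p = 0.0516, 0.0548 and 0.0572). CPA against untreated cells gave -0.60 ± 0.38, edgeR adjusted p = 0.505, and 0.11 without untreated replicate 4.

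PDIA3 (ENSG00000167004, chr15:43746394-43773279), which works with the lectin chaperones on glycoproteins, had its highest values in the CPA group. Its level was 13.8, 13.3, 19.9 and 13.1 CPM with CPA and synta-66, 26.6, 19.1, 26.8 and 25.3 CPM with CPA, and 11.4, 17.4, 10.6 and 20.5 CPM in untreated cells. Replicate 2 of CPA overlapped both other groups. PDIA3 passed the threshold in no comparison, at -0.69 ± 0.23 in CPA with synta-66 against CPA (edgeR adjusted p = 0.0589), 0.01 ± 0.24 in CPA with synta-66 against untreated cells (adjusted p = 0.992) and 0.70 ± 0.23 in CPA against untreated cells (adjusted p = 0.0677). Small changes move the values against CPA and of CPA against untreated cells across it. CPA with synta-66 against CPA was called lower without CPA replicate 2, replicate 3 with synta-66 or untreated replicate 4 (-0.79, -0.86 and -0.69, edgeR adjusted p = 0.0411, 0.0329 and 0.0442). It was also called in DESeq2, with filterByExpr and in a fit of only these groups (adjusted p = 0.0453, 0.0493 and 0.0399). CPA against untreated cells was called higher without untreated replicate 4 or CPA replicate 2 (0.88 and 0.81, edgeR adjusted p = 0.0216 and 0.044) and in DESeq2 (adjusted p = 0.0411). ELL3 overlaps PDIA3 from the other strand over 622 exonic bases with a mean of 45.9 reads against 73.6, and was not called in any comparison (edgeR adjusted p = 0.0677 to 0.998).

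HERPUD1 and SDF2L1 had the fewest reads. HERPUD1 (ENSG00000051108, chr16:56932142-56944864), an ER membrane protein of the degradation machinery, had 4, 20, 30 and 14 reads with CPA and synta-66, 18, 4, 7 and 6 reads with CPA, and 1, 0, 0 and 0 reads in untreated cells. All 8 libraries given CPA held more than any untreated one. The untreated zeros allow up to 0.6, 0.938 and 0.879 CPM in replicates 2, 3 and 4 (3 reads), and the lowest library given CPA had 0.93 CPM, so single libraries come close to that limit. Summed over libraries, HERPUD1 was 84.1 times higher with CPA and synta-66 than in untreated cells (68 reads against 1; 95% counting interval 14.6 to 3370) and 32.5 times higher with CPA than in untreated cells (35 reads against 1; 5.46 to 1319). Both rises were called (edgeR adjusted p = 6.93e-05 and 0.00361) and stayed called without any single library, with adjusted p of at most 0.00104 and 0.036. HERPUD1 passed the count filter only through the groups given CPA, where its reads lay, so these calls are a description. CPA with synta-66 held 2.59 times as many reads as CPA (68 against 35, interval 1.70 to 4.01) and was not called (edgeR 1.26 ± 0.65, adjusted p = 0.292). These intervals are for counting error only, and they and the 3-read limits treat each read as independent. Where both mates of a pair count, they are too narrow. The only untreated read lay in replicate 1, and the fitted fold changes of this gene depend on it: 4.50 in CPA against untreated cells, 6.01 without that library and 3.78 without CPA replicate 1, and 5.76 in CPA with synta-66 against untreated cells, 7.27 without that library.

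SDF2L1 (ENSG00000128228, chr22:21642302-21644299), which binds HSPA5 and DNAJB11 in the ER, had 12, 0, 28 and 8 reads with CPA and synta-66, 12, 12, 6 and 6 with CPA, and 6, 2, 0 and 4 in untreated cells. The groups overlapped, and the 2 zeros allow up to 0.676 CPM with synta-66 and 0.938 CPM in untreated cells (3 reads). SDF2L1 was not called, at 0.85 ± 0.75 in CPA with synta-66 against CPA, 2.34 ± 0.83 in CPA with synta-66 against untreated cells and 1.49 ± 0.84 in CPA against untreated cells (log2, SE; edgeR adjusted p = 0.614, 0.122 and 0.416). Without replicate 2 of CPA with synta-66, the library at 0, the second of these was 2.79 and passed (edgeR adjusted p = 0.0232). HERPUD1 and SDF2L1 entered the test only through the groups given CPA, since neither had 5 reads in 2 untreated libraries.

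CRELD2 and CANX carry the ER stress response element in their promoter windows, as HSPA5 does, and neither was called. CRELD2 (ENSG00000184164, chr22:49918167-49927540), a secretory-pathway protein with EGF-like domains, had 45.0, 27.3, 20.1 and 27.4 CPM with CPA and synta-66, 39.5, 29.5, 26.4 and 24.4 CPM with CPA, and 21.2, 22.002, 12.8 and 26.4 CPM in untreated cells. The 3 groups overlapped. The changes were -0.01 ± 0.21 in CPA with synta-66 against CPA, 0.51 ± 0.22 in CPA with synta-66 against untreated cells and 0.53 ± 0.21 in CPA against untreated cells (log2, SE; edgeR adjusted p = 0.985, 0.23 and 0.191). The first has a 95% interval of -0.43 to 0.40. The second was 0.26 without replicate 1 of CPA with synta-66 and 0.0097 with the 3 libraries of the most non-unique alignments left out. ALG12 overlaps CRELD2 from the other strand, with a mean of 20 reads against 103.5 for CRELD2.

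CANX (ENSG00000127022, chr5:179678628-179731641), the membrane-bound lectin chaperone calnexin, had 80.7, 63.3, 68.5 and 94.9 CPM with CPA and synta-66, 79.5, 40.5, 43.8 and 46.2 CPM with CPA, and 48.7, 44.004, 29.1 and 109.9 CPM in untreated cells. A single high library in each of the other groups, CPA replicate 1 and untreated replicate 4, overlapped the libraries with synta-66. CANX gave 0.54 ± 0.22 in CPA with synta-66 against CPA, 0.40 ± 0.22 in CPA with synta-66 against untreated cells and -0.14 ± 0.22 in CPA against untreated cells (log2, SE; edgeR adjusted p = 0.14, 0.417 and 0.848). Without CPA replicate 1 the first was 0.81 and called (edgeR adjusted p = 0.0218), and without untreated replicate 4 the second was 0.89 and called (edgeR adjusted p = 0.000484). CPA against untreated cells gave 0.35 without untreated replicate 4. Untreated replicate 4 was also the highest untreated library of HSPA5, RABEPK, PDIA4, DNAJB11, CRELD2 and PDIA3. CBY3 lies opposite CANX with a mean of 9.17 reads against 234 and was not called.

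**Figure D4:**
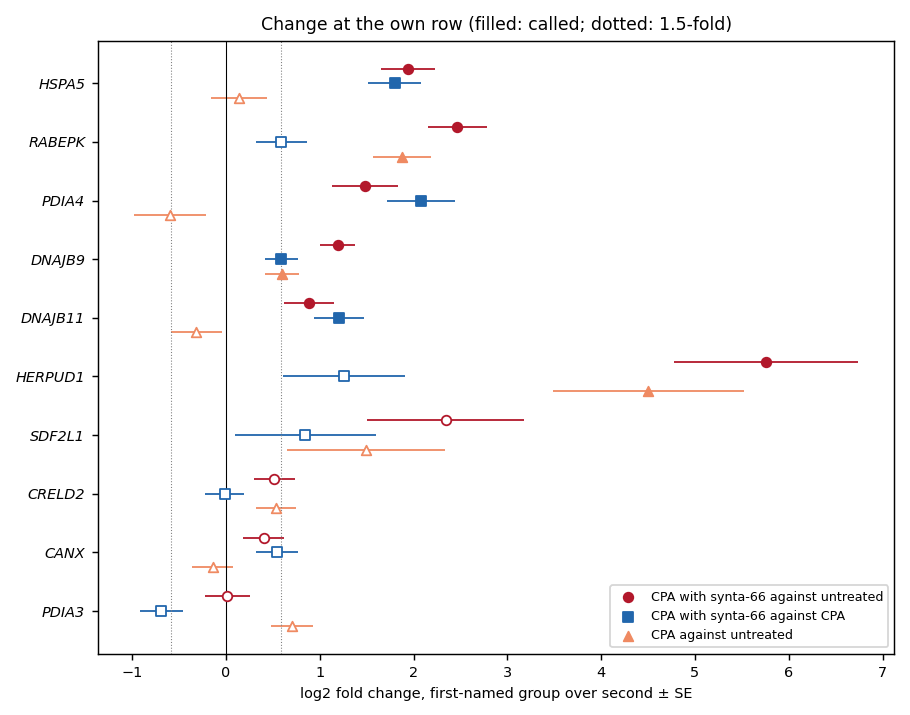
Log2 fold change (horizontal axis) of each gene at its own row with its SE, in CPA with synta-66 against untreated, CPA with synta-66 against CPA, and CPA against untreated. Filled symbols were called and dotted lines mark 1.5-fold; RABEPK, DNAJB9 and HERPUD1 are filled in CPA against untreated, and HSPA5, PDIA4, DNAJB9 and DNAJB11 in CPA with synta-66 against CPA.

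By comparison, 4 of the 10 rose and none fell in CPA with synta-66 against CPA (HSPA5, PDIA4, DNAJB9 and DNAJB11), where 4.76% of all genes tested were called, 1.94% higher and 2.82% lower. In CPA with synta-66 against untreated cells 6 rose and none fell (those 4 with RABEPK and HERPUD1), where 2.9% of all genes were called, 1.66% higher and 1.24% lower. In CPA against untreated cells 3 rose and none fell (RABEPK, DNAJB9 and HERPUD1), where 2.85% of all genes were called, 1.8% higher and 1.05% lower. HERPUD1, counted here and in the comparison before, passed the count filter only through the groups given CPA. At an unadjusted p under 0.05, 6 were higher and 1 lower in the first comparison, 8 higher and none lower in the second, and 5 higher and none lower in CPA against untreated cells. Of all genes tested, 8.55% were higher and 10.4% lower at that level in the first comparison, 6.67% higher and 7.69% lower in the second, and 7.83% higher and 7.28% lower in CPA against untreated cells. DESeq2 called 4 higher and 1 lower (PDIA3), 6 higher, and 3 higher in the same order, where it called 2.27%, 1.78% and 2.05% of all genes higher and 3.11%, 1.48% and 1.36% lower; its 3 hold PDIA3 in place of HERPUD1, for which it gave no adjusted p. Over all alternatives the edgeR and DESeq2 counts were 3 to 5, 4 to 7 and 2 to 4. The median log2 change of the 10 was 0.72 in CPA with synta-66 against CPA, 1.34 in CPA with synta-66 against untreated cells and 0.56 in CPA against untreated cells, beside -0.04, -0.06 and -0.01 over all genes tested. In log2 CPM over the 12 libraries, HSPA5 ran closest to PDIA4 (Pearson r = 0.88) and DNAJB11 (0.80) among the 10, RABEPK to HERPUD1 (0.87) and DNAJB9 (0.83), and HSPA5 with RABEPK gave 0.69. HSPA5 and PDIA3 gave -0.20. These values are a description over 12 libraries that share groups and depth.

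Levels at the own rows were also read per length. In RPKM, which is CPM divided by the length of the exons in kilobases, DNAJB9 was the highest of the 10 in each group, at 16.2 ± 1.15 with CPA and synta-66, 10.8 ± 1.73 with CPA and 7.10 ± 1.62 in untreated cells. HSPA5 had 5.22 ± 1.34, 1.51 ± 0.873 and 1.35 ± 0.52 RPKM in the same order, against a median over 14629 genes of 1.47, 1.65 and 1.63. Its own row thus lay at percentile 71.7 of those genes with CPA and synta-66, 48.3 with CPA and 46.6 in untreated cells. Rows may hold unlike shares of a transcript's reads, so these are ranks of rows and not of transcript levels. RABEPK had 6.16 ± 1.72, 4.06 ± 1.78 and 1.11 ± 0.191 RPKM, so that with CPA its own row was above that of HSPA5 also per length. HERPUD1 was the lowest of the 10 in each group, at 0.968 ± 0.49, 0.41 ± 0.341 and 0.0103 ± 0.0206 RPKM.

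The wider ER lists were chosen with earlier results of these data known, and their own-row counts stand beside shares over all genes tested. In CPA with synta-66 against CPA, edgeR called 1.94% of all genes higher and 2.82% lower. Against untreated cells, it called 1.66% higher and 1.24% lower in CPA with synta-66, and 1.8% higher and 1.05% lower in CPA. Of 16 ER chaperones and co-chaperones, all tested, 6 rose and none fell in CPA with synta-66 against CPA, 6 rose and 1 fell in CPA with synta-66 against untreated cells, and 1 rose and 1 fell in CPA against untreated cells; the list holds HSPA5, DNAJB9, DNAJB11, SDF2L1, CRELD2 and CANX. Among its other genes, HYOU1, an ER protein that exchanges the nucleotide of HSPA5, averaged 8.38 ± 3.83 CPM with CPA and synta-66, 1.88 ± 0.485 CPM with CPA and 1.61 ± 1.55 CPM in untreated cells. HYOU1 rose by 2.12 ± 0.54 against CPA and 2.37 ± 0.56 against untreated cells, and the chaperone HSP90B1 by 0.87 ± 0.16 and 0.91 ± 0.16. CALR, the soluble lectin chaperone calreticulin, rose by 0.84 ± 0.18 and 0.87 ± 0.18, with 54.3 ± 4.07, 30.4 ± 8.35 and 29.8 ± 8.93 CPM in the order above. None of these 3 was called at its own row in CPA against untreated cells, at 0.25, 0.03 and 0.03. Rows overlapping their exons from the other strand did rise in that comparison. ENSG00000255114, opposite HYOU1, gave 0.72 (mean 2854 reads against 13.3, edgeR adjusted p = 1.65e-09). UQCC6, opposite HSP90B1, gave 2.05 (320 against 274.5, adjusted p = 2.4e-14). ENSG00000267458, opposite CALR, gave 0.48, under 1.5-fold (7821 against 144, adjusted p = 4.16e-06). TTC41P, also opposite HSP90B1, was not called there. SIL1, another nucleotide exchange factor of HSPA5, was the gene that fell, by 1.03 ± 0.29 in CPA with synta-66 against untreated cells and by 1.10 ± 0.29 in CPA against untreated cells.

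Of 15 protein disulfide isomerases and oxidases 12 were tested, and PDIA4 was the only one called by edgeR in any comparison, higher in both with synta-66; DESeq2 also called PDIA3, as given above. Of 17 genes of ER-associated degradation 13 were tested. In CPA with synta-66 against CPA, DERL2 rose (1.19 ± 0.10) and DERL3 fell (-0.84 ± 0.25), both channel-forming proteins of that machinery. MIS12 overlaps DERL2 from the other strand over 301 exonic bases, with a mean of 9.17 reads against 534. SMARCB1 overlaps DERL3 in the same way over 2923 exonic bases, with 8.33 reads against 60.25. HERPUD1, DERL2 (1.59 ± 0.10) and SEL1L (1.80 ± 0.48), a partner of the degradation ligase, rose in CPA with synta-66 against untreated cells. In CPA against untreated cells HERPUD1 was the only call of this list, and it passed the count filter only through the groups given CPA. DERL2 gave 0.40 ± 0.10 there, under 1.5-fold (edgeR adjusted p = 0.00811). Of 16 sensors and factors of the unfolded protein response 8 were tested. At own rows neither edgeR nor DESeq2 called any of them, nor any of 14 cytosolic heat shock genes, in any comparison. Of all genes tested, edgeR called 4.76%, 2.9% and 2.85% in CPA with synta-66 against CPA, CPA with synta-66 against untreated and CPA against untreated. No call among so few genes is near those shares, so it is no result about these lists. Some rows over exons of the 16 from the other strand rose in CPA against untreated cells. MARS1, opposite DDIT3, gave 1.74 (mean 4231 reads against 533, edgeR adjusted p = 4.13e-22). ENSG00000225420, opposite EIF2AK3 (not tested), gave 0.98 (1440 against 3.17, adjusted p = 3.66e-12). TECPR1, opposite BHLHA15 (not tested), was called higher (149 against 0.667, adjusted p = 1.38e-09). MBD6, also opposite DDIT3, and rows over NFE2L2 exons were not called there. With CPA and synta-66 the MARS1 row had 2385 to 2767 CPM, against 676 to 795 CPM with CPA. In the same groups ENSG00000225420 had 620 to 722 against 309 to 327 CPM, and TECPR1 81.8 to 114 against 18.4 to 31.2 CPM. The MBD6 row and those over NFE2L2 exons overlapped between these groups. At an unadjusted p under 0.05, 3, 3 and 0 of the 8 sensors and factors and 1 gene of heat shock in each comparison passed (CPA with synta-66 against CPA, CPA with synta-66 against untreated, CPA against untreated), where 19%, 14.4% and 15.1% of all genes tested did so in either direction. List medians for the chaperones were 0.67 in CPA with synta-66 against CPA, 0.88 in CPA with synta-66 against untreated cells and 0.03 in CPA against untreated cells, beside 0.34, 0.35 and -0.02 for the sensors and 0.02, -0.35 and -0.30 for the heat shock genes.

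**Figure D5:**
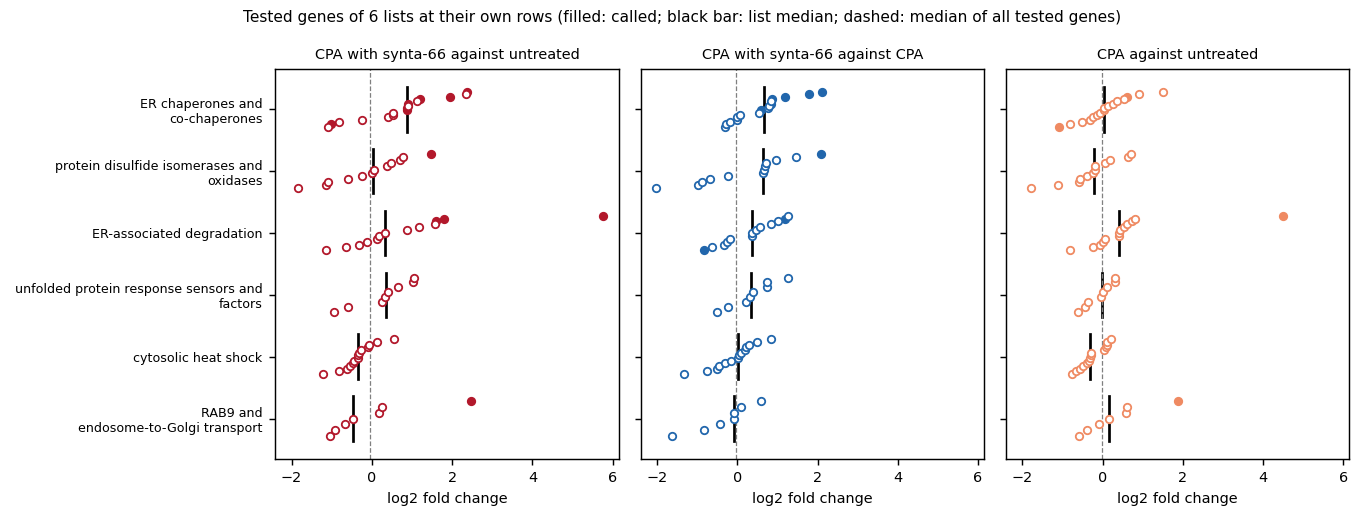
Log2 fold change of each tested gene of 6 lists (rows) at its own row, with a panel per comparison. Filled points were called, black bars are list medians and the dashed line is the median of all genes tested; the chaperone median is 0.88 and 0.67 in the 2 panels with synta-66 and 0.03 in CPA against untreated.

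Over the 12 libraries, the genes whose log2 CPM ran closest to that of HSPA5, among 6356 with a mean of at least 5 CPM, were AREG (Pearson r = 0.95), CALR (0.94), ENSG00000273599 (0.93), AKAP17A (0.92) and SMIM10L1 (0.90). AREG, a ligand of the EGF receptor, averaged 19.1 CPM with CPA and synta-66, 4.11 CPM with CPA and 4.58 CPM in untreated cells. Closest to RABEPK were ENSG00000258377 (0.96), IFNGR2 (0.95), GON4L (0.95), PPP1CA (0.94) and ENSG00000271806 (0.94). IFNGR2, a subunit of the interferon gamma receptor, averaged 73.2 CPM with CPA and synta-66, 36.5 CPM with CPA and 9.36 CPM in untreated cells. AREG, like HSPA5, was high in the group given CPA with synta-66 and low in the other 2, while the means of IFNGR2, like those of RABEPK, were highest with CPA and synta-66 and lowest in untreated cells, with CPA between them.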

How the data were processed

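RNA of HSC-3 cells was sequenced as paired ends in 12 libraries, 4 per group. Per the labels' protocols, the authors used FastQC 0.11.5, Trimmomatic 0.32 (0.36 in the submitters' processing notes), STAR 2.5.2a and HTSeq 0.6.1p1 with Ensembl 84 on GRCh38, counting the libraries as stranded. No source used here names the library kit. Each deposited value is a raw count, a number of reads assigned to a gene, with no normalization by the authors. A library reached 108 M uniquely aligned reads, above the highest stated number of trimmed reads (66.7 M), so both mates of a pair seem to count.

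From these counts, without the 5 closing rows of unassigned reads (90.5% to 96.3% of uniquely aligned reads lay in no feature), genes reaching 5 reads in 2 libraries of any group, which is the filter of the study, were tested. The test was edgeR 4.0.16 in R 4.3.3 (TMM scaling, quasi-likelihood, group as the only term, all 12 libraries), with Benjamini-Hochberg adjustment over 14911 genes. The log2 ratio used a pseudocount of 1 and scipy 1.17.1. The steps were tested on simulated data. Positions and strands come from GENCODE 44 on GRCh38, which holds 56558 of the gene IDs. No pair of libraries of a group was alike within counting noise (lowest chi-square per degree of freedom 5.26). Intervals and floors cover counting error only and treat each read as independent. Where both mates of a pair count, they are too narrow.

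Same-numbered libraries did not deviate together (correlations -0.02 to 0.05 over 12 pairs), and the number was not used as a block in the main fit. Counting noise at low rows lowers such correlations, so they cannot exclude a block. Alternatives were RLE or upper-quartile scaling, DESeq2 1.42.0, no filter or filterByExpr, no minimum fold, no mitochondrial genes, 2 groups only, the replicate block, a pseudocount of 0.5, each library left out and the 3 richest in non-unique alignments left out. Named genes are the 10 members, called list genes, opposite and neighbouring genes, and the 5 nearest in pattern to HSPA5 and RABEPK. The members and lists were chosen with earlier results of these data known.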

Additional observations from a re-analysis of the deposited data

Results flagged for a closer look

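Among 33 sets of 4 libraries examined for a library far from the other 3 (Dixon's test of the gap over the range), 5 stood out. Chance gives about 1 in 20 for measured values, a rate that does not hold for HERPUD1 in untreated cells, where a single read among zeros always stands out. PDIA4 in untreated cells had 14.6 CPM in replicate 4, against 3.20 to 4.69 CPM in the other 3. HERPUD1 with CPA had 4.65 CPM in replicate 1, against 0.93 to 1.43 CPM. HERPUD1 in untreated cells had 0.208 CPM, a single read, in replicate 1 and none in the other 3. CANX with CPA had 79.5 CPM in replicate 1, against 40.5 to 46.2 CPM. PDIA3 with CPA and synta-66 had 19.9 CPM in replicate 3, against 13.1 to 13.8 CPM.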

How the results depend on the processing

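Without a minimum fold, 655 genes were called in CPA against untreated, against 425. Leaving out 1 library gave 568 to 784 calls in CPA with synta-66 against CPA, 335 to 427 in CPA with synta-66 against untreated and 357 to 441 in CPA against untreated, with 3 to 5, 4 to 7 and 2 to 4 of the 10 genes, and log2 ratio differences of 1.03 to 1.48, -0.63 to -0.20 and -1.90 to -1.45. Of the alternative values of single genes, 594 kept direction and side of the threshold, 32 lost a call, 13 gained one and 16 turned round, none of the last called. With the 3 libraries of the most non-unique alignments left out, the turned values were HSPA5 -0.018 in CPA against untreated, CANX -0.045 and PDIA3 -0.0093 in CPA with synta-66 against untreated. CRELD2 in CPA with synta-66 against CPA was 0.012 with upper-quartile scaling and 0.00072 in DESeq2. Leaving out 1 library, the turned ranges were -0.29 to 0.40 (HSPA5), -0.85 to 0.11 (PDIA4) and -0.39 to 0.35 (CANX) in CPA against untreated, -0.27 to 0.15 (CRELD2) in CPA with synta-66 against CPA and -0.16 to 0.19 (PDIA3) in CPA with synta-66 against untreated. The replicate block gave 723, 418 and 441 calls in the same order of comparisons, with 3, 5 and 3 of the 10 genes: DNAJB9 lost its call against CPA (0.58, under the minimum fold) and DNAJB11 its call against untreated (adjusted p = 0.0598). The paired ratio test gave exact p = 0.125 in CPA against untreated and in CPA with synta-66 against CPA, the smallest 4 pairs allow. Of the 12 libraries, 5 correlated best with their own number. DESeq2 gave no adjusted p for HERPUD1 in CPA against untreated. filterByExpr left SDF2L1 out of the test. The cause of these changes was not tested. At 0 to 30 reads per library, HERPUD1 and SDF2L1 allow no finer statement.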

Other observations

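SDF2L1 had an even number of reads in all 12 libraries, zeros included, and HERPUD1 in 10 of 12, where 54.5% of all gene values from 1 to 20 reads were even. PDIA4 was even in 9 of 12 and HSPA5 in 6 of 12, where 50.5% of all values from 21 to 100 reads were even.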
